A study of Mus musculus with 20 samples.

Results

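The transcripts examined here encode 10 receptors through which blood stem cells find, enter and hold on to bone marrow: Cxcr4, Itga4, Itga6, Itgal, Itgb1, Itgb2, Cd44, Selplg, Robo4 and Vcam1. They were taken by name from the 49671 gene identifiers counted in sorted mouse hematopoietic stem cells (HSCs), and all 10 matched a single identifier. Each was followed in 6 RNA libraries, and the DNA in and within 50 kb of each gene was followed in 6 maps of open chromatin (ATAC-seq, in which a transposase inserts into accessible DNA). The cells came from C57BL/6 mice aged 8 weeks. In the Control group the genotype was Vav-CRE:Kdm6b+/+, and in the Kdm6b-KO group it was Vav-CRE:Kdm6b fl/fl. The enzyme made from Kdm6b removes methyl groups from histone H3 at lysine 27. Both groups carried Cre, and the Vav promoter drives it throughout the blood system. Whether any niche cells of the bone marrow also lost the gene was not measured here. There were 3 RNA libraries per group, each from the pooled cells of 3 male and 3 female mice, sorted as lineage-negative, cKit+, Sca1+, CD150+ and CD48- cells. There were 3 ATAC libraries per group, each from 10000 sorted HSCs. All 6 ATAC libraries carry a wild-type genotype label, so their groups rest on the titles, and those titled 6bKO are named that way below.

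Homing of a stem cell from blood to marrow proceeds in steps. Selectin ligands and CD44 let the cell tether and roll on the vessel wall, CXCR4 senses the chemokine CXCL12 made by niche cells, and this signal activates integrins that hold the cell firmly. The integrin alpha 4 beta 1 (the product of Itga4 and Itgb1) binds VCAM1 and fibronectin, alpha 6 beta 1 (Itga6 and Itgb1) binds laminin, and alpha L beta 2 (Itgal and Itgb2) binds ICAM proteins. ROBO4 is a guidance receptor of endothelial and stem cells that acts beside CXCR4 in placing HSCs in the marrow. VCAM1 is best known on stromal and endothelial cells and on macrophages, and it is also present on some HSCs.

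The DNA before the gene start is shown for 4 of the members because it was overlapped by an ATAC region with a peak in every library. The reference table of RefSeq promoters (GRCm38.p6, the assembly of mm10) held 5 of the members, namely Cxcr4, Itga4, Itgb1, Cd44 and Robo4. Each line below gives the 250 bases before the start that the table uses, 5′ to 3′ on the strand of the gene, and capitals mark GGAA on either strand (read as GGAA or TTCC), the core bound by ETS factors. Itga4 and Robo4 are shown because their windows held the only regions that separated the ATAC groups, Cxcr4 for its GC boxes and Cd44 for its number of GGAA cores.
Itga4, chr2:79255176-79255425, plus strand: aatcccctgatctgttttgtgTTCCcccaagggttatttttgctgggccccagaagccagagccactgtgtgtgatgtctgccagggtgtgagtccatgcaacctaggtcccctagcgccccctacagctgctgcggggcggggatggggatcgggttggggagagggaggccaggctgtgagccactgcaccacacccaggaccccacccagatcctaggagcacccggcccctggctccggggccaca
Robo4, chr9:37401722-37401971, plus strand: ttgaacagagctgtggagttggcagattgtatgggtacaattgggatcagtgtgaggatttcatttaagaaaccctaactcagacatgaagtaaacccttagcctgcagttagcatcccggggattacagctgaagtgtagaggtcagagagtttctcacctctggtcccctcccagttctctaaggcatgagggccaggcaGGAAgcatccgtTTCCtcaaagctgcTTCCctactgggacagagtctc
Cxcr4, chr1:128592300-128592549, minus strand: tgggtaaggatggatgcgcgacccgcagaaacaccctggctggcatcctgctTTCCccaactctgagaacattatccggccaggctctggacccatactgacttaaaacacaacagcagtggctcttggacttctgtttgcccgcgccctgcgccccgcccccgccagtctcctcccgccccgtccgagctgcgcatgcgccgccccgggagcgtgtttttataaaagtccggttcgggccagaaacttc
Cd44, chr2:102901666-102901915, minus strand: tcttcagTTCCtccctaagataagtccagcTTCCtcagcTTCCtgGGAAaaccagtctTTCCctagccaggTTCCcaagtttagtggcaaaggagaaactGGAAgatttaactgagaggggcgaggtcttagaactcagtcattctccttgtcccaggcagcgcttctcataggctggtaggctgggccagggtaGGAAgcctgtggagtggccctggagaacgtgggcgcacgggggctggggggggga

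The 5 promoters differed in base composition. GC content was 68% for Itgb1, 64% for Itga4, 61.2% for Cxcr4, 56.4% for Cd44 and 49.6% for Robo4, against a median of 52.4% over 32851 promoters in the table. GGAA was found on either strand in all 5, as it was in 93.4% of all promoters, and the median promoter held 3 matches. Cd44 held 8 matches, Itgb1 held 4, Robo4 held 3, and Cxcr4 and Itga4 held 1 each. GGGCGG, the GC box read by Sp factors, was found in 3 of the 5 promoters and in 32.7% of all. Cxcr4 held 3 GC boxes, and Itga4 and Itgb1 held 1 each. TGTGGT, the core read by Runx factors, was found in Itga4 (14.0% of all promoters) and AGATAA, read by GATA factors, in Cd44 (9.99% of all). CANNTG, the E-box, was found in Itga4 and Robo4 (66.2% of all). TGACGT, the half-site of CREB factors, and TGANTCA, the AP-1 site, were found in none of the 5, and in 6.47% and 6.75% of all promoters. All searches covered both strands. A match describes letters in a window and not a bound site.

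Counts assigned to genes were 6793873 to 13797890 in the Control libraries and 8683106 to 19336121 in those of Kdm6b-KO. Levels are given in CPM (each count scaled to the size of its library, with TMM factors). Before TMM factors, 3 counts equalled 0.155 to 0.442 CPM. All 10 HSC markers on a fixed list were detected, with a summed level of 3338 to 5488 CPM in Control and 3855 to 4156 CPM in Kdm6b-KO. Neutrophil markers, 12 genes led by Ngp, summed to 3755, 1209 and 2153 CPM in the Control libraries and to 4422, 197 and 195 CPM in the Kdm6b-KO libraries. Kdm6b itself overlapped between the groups, at 92.0, 282.5 and 220.6 CPM in Control against 142.5, 202.1 and 191.3 CPM in Kdm6b-KO (edgeR log2 fold change -0.15, adjusted p = 0.882). This count covers the whole gene and which exons were deleted is not stated in the labels, so it does not check the genotype.

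None of the 10 receptors passed the test between Kdm6b-KO and Control HSCs. All 10 were tested, with counts of 53 to 4524 per library, and adjusted p ran from 0.241 to 0.967 (edgeR quasi-likelihood, Benjamini-Hochberg over 15185 genes). Over all genes, 70 passed, which is 0.461%. DESeq2, which called 3.08% of all genes, and limma-voom, which called 0.277%, also called 0 of the 10. At an unadjusted p under 0.05 there were 2 members, Itgal and Robo4, while 14.8% of all genes had such a p. The log2 fold change (Kdm6b-KO over Control) was positive for 6 members and negative for 4, with a median of 0.16, against a median of -0.00125 over all tested genes. The groups did not overlap for 3 members, Itgal and Robo4 (higher) and Itga4 (lower), while 20.5% of all genes had groups that did not overlap. On simulated counts for this comparison, with 14858 genes tested, the same procedure recovered 93.7% of genes changed by 2 on the log2 scale but 9.28% of those changed by 1. The simulation used a set spread between libraries, the same for every gene and not estimated from these counts. At that spread, changes of the size seen here were mostly below what 3 libraries per group could call. The spread of the receptors may differ from it. In bulk libraries, a change in the number of cells of a type and a change in RNA per cell cannot be told apart.

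**Figure D1:**
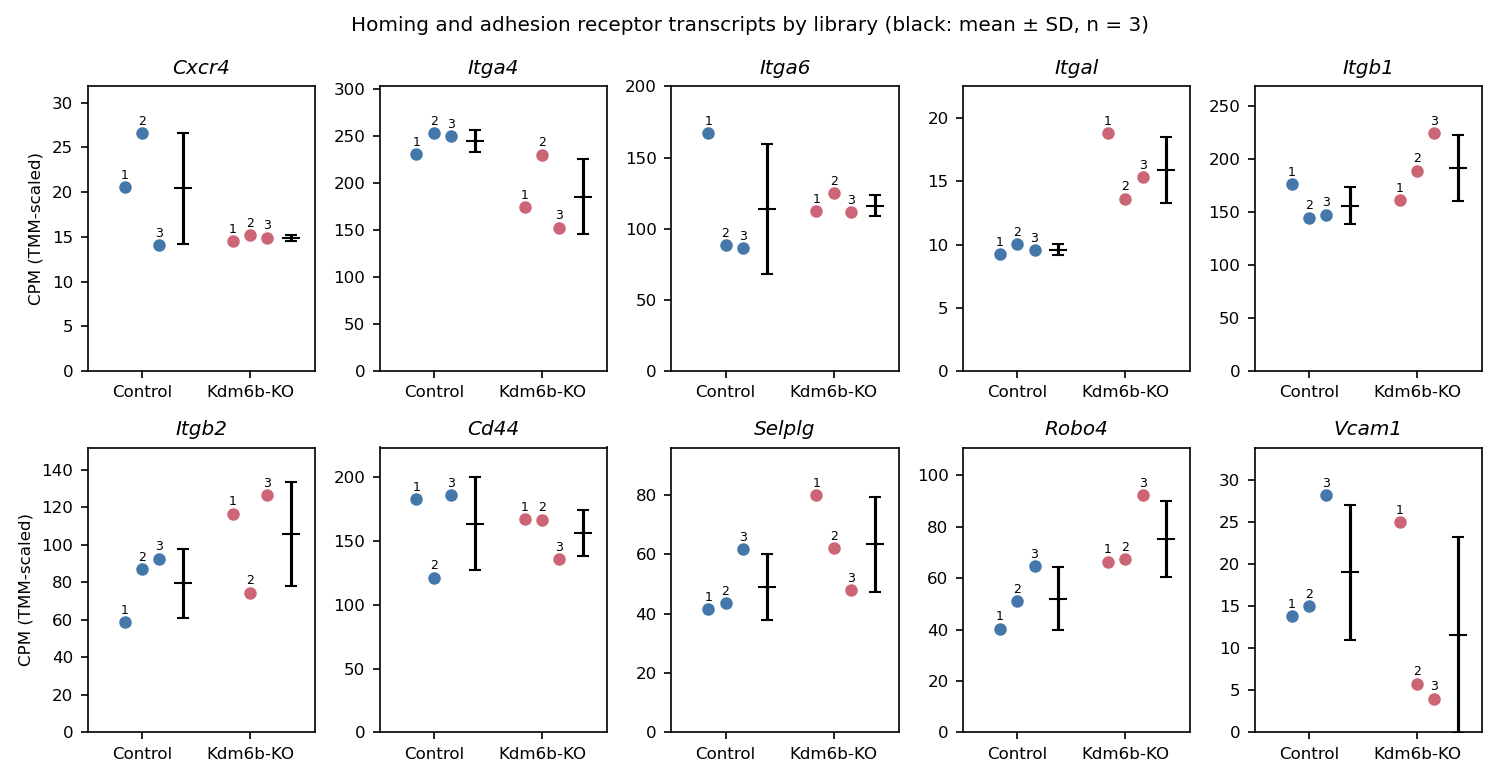
Level of each receptor transcript in CPM (counts scaled to library size, with TMM factors) in the 3 Control (blue) and 3 Kdm6b-KO (red) libraries, numbered by replicate, with mean ± SD in black; each panel has its own axis from 0. The groups are apart for Itga4, Itgal and Robo4 and overlap for the other 7.

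Cxcr4, the CXCL12 receptor (chromosome 1, 128588199 to 128592299, minus strand), was measured at 20.6, 26.6 and 14.1 CPM in the Control libraries. In the Kdm6b-KO libraries it was at 14.5, 15.1 and 14.9 CPM. The Kdm6b-KO libraries were nearly equal to each other, and Control replicate 3 lay below all of them while the other Control libraries lay above. The means were 20.4 ± 6.23 and 14.8 ± 0.321 CPM (SD, n = 3 each), and the log2 fold change was -0.45 (SE 0.27, 95% interval -1.04 to 0.13, edgeR adjusted p = 0.463). It was -0.21 without Control replicate 2 and -0.67 without Control replicate 3. Counting error alone gave a 95% Poisson interval of 12.2 to 16.2 CPM for Control replicate 3 and of 23.1 to 30.4 CPM for Control replicate 2. The ligand Cxcl12 was at 0.768 to 1.83 CPM in Control and 0.940 to 1.74 CPM in Kdm6b-KO.

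Of the alpha integrins, Itga4 (chromosome 2, 79255426 to 79333114, plus strand) was at 231, 253 and 250 CPM in Control. It was at 174, 230 and 153 CPM in Kdm6b-KO. Every Kdm6b-KO library lay below every Control library, although Kdm6b-KO replicate 2 was close to Control replicate 1. The means were 244.7 ± 11.9 and 185.8 ± 40.0 CPM (SD, n = 3 each), and the log2 fold change was -0.40 (SE 0.20, 95% interval -0.83 to 0.03, edgeR adjusted p = 0.373). The annotated gene overlaps Cerkl, and the library kit does not mark strand. How reads of the overlap were counted is not known, as the strand setting was not given.

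Itgal, the alpha subunit of the leukocyte integrin that binds ICAM proteins (chromosome 7, 127296139 to 127335137), gave the smallest adjusted p of the 10. It was at 9.21, 10.0 and 9.57 CPM in Control, and at 18.8, 13.6 and 15.3 CPM in Kdm6b-KO. The Control libraries were close together and all Kdm6b-KO libraries lay above them. The means were 9.61 ± 0.413 and 15.9 ± 2.63 CPM (SD, n = 3 each), a 1.66-fold difference with a log2 fold change of 0.73 (SE 0.27, 95% interval 0.15 to 1.31, unadjusted p = 0.0175 and adjusted p = 0.241 by edgeR). The counts behind these levels were low, from 60 to 131 reads in Control and from 125 to 310 reads in Kdm6b-KO.

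Itga6, the alpha subunit of laminin-binding integrin (chromosome 2, 71786886 to 71858427), did not separate the groups. It was at 167, 88.3 and 86.2 CPM in Control and at 112, 125 and 112 CPM in Kdm6b-KO. Control replicate 1 lay above all other libraries and the other Control libraries lay below all. The log2 fold change was 0.03 (SE 0.24, 95% interval -0.49 to 0.55, edgeR adjusted p = 0.967), and it was 0.42 without Control replicate 1 and -0.13 without Control replicate 3.

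The beta subunits had positive log2 fold changes and overlapping groups. Itgb1, the common beta subunit of the alpha 4 and alpha 6 integrins (chromosome 8, 128685654 to 128733579, plus strand), was at 176, 144 and 147 CPM in Control and at 161, 189 and 224 CPM in Kdm6b-KO. Kdm6b-KO replicate 1 fell within the Control range and the other Kdm6b-KO libraries lay above it. Its log2 fold change was 0.30 (SE 0.20, 95% interval -0.12 to 0.71, edgeR adjusted p = 0.504). Itgb2, the beta subunit of leukocyte integrins (chromosome 10, 77530329 to 77565708), was at 58.7, 86.9 and 92.6 CPM in Control and at 117, 74.5 and 127 CPM in Kdm6b-KO. Kdm6b-KO replicate 2 lay inside the Control range. The log2 fold change was 0.41 (SE 0.23, 95% interval -0.09 to 0.91, edgeR adjusted p = 0.429).

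An integrin reaches the surface as a pair, so the read count of each alpha subunit was also divided by that of its beta subunit within a library, a ratio that does not depend on library scaling. These 3 ratios were chosen after the values of single genes had been seen. Gene length enters each ratio, so it can be compared across libraries but not between pairs. Itga4 over Itgb1 was 1.31, 1.75 and 1.70 in Control against 1.08, 1.22 and 0.683 in Kdm6b-KO. All Kdm6b-KO libraries lay below all Control libraries, and the means were 1.59 ± 0.238 and 0.995 ± 0.279 (SD, n = 3 each), a log2 difference of -0.70. It was -0.45 without Kdm6b-KO replicate 3 and between -0.87 and -0.63 with any other library left out. The exact two-sided permutation test gave p = 0.1, the smallest it can give with 3 libraries against 3, and 0.3 after Benjamini-Hochberg adjustment over the 3 ratios. Itga6 over Itgb1 was 0.949, 0.611 and 0.585 in Control against 0.697, 0.662 and 0.499 in Kdm6b-KO (exact permutation p = 0.6). Itgal over Itgb2 was 0.157, 0.115 and 0.103 in Control against 0.161, 0.183 and 0.121 in Kdm6b-KO (exact permutation p = 0.2). For these 2 ratios the groups overlapped.

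**Figure D2:**
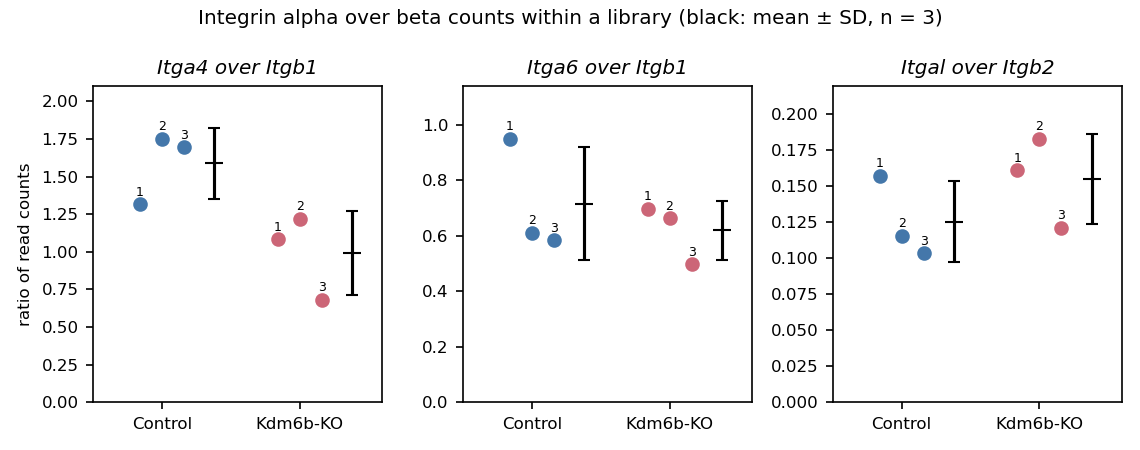
Ratio of read counts of an integrin alpha subunit to its beta subunit within each library, for 3 pairs, in Control (blue) and Kdm6b-KO (red), with mean ± SD (n = 3) in black. Itga4 over Itgb1 is 1.31 or more in Control and 1.22 or less in Kdm6b-KO, while the other pairs overlap.

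The rolling receptors showed no common direction. Selplg encodes PSGL-1, the main ligand of P-selectin on blood cells (chromosome 5, 113817798 to 113832528). It was at 41.6, 43.6 and 61.7 CPM in Control and at 80.0, 62.0 and 48.0 CPM in Kdm6b-KO. Kdm6b-KO replicate 3 fell within the Control range, and the log2 fold change was 0.37 (SE 0.23, 95% interval -0.13 to 0.86, edgeR adjusted p = 0.481). Cd44, the hyaluronan receptor that can also carry selectin ligands (chromosome 2, 102811141 to 102901669, minus strand), was at 183, 121 and 186 CPM in Control and at 167, 167 and 136 CPM in Kdm6b-KO. All Kdm6b-KO values lay inside the Control range. Its log2 fold change was -0.06 (SE 0.21, 95% interval -0.51 to 0.38, edgeR adjusted p = 0.924), and its sign changed with the scaling, to 0.0753 with library totals, a setting that moved the median of all genes by 0.147. The annotated gene Gm23731 overlaps it.

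Robo4, the guidance receptor (chromosome 9, 37401902 to 37414023, plus strand), was at 40.4, 51.1 and 64.8 CPM in Control. It was at 66.4, 67.3 and 92.4 CPM in Kdm6b-KO. Every Kdm6b-KO library lay above every Control library, though Kdm6b-KO replicate 1 exceeded Control replicate 3 by little. The means were 52.1 ± 12.2 and 75.4 ± 14.7 CPM (SD, n = 3 each), and the log2 fold change was 0.53 (SE 0.22, 95% interval 0.06 to 1.00, unadjusted p = 0.0288 and adjusted p = 0.286 by edgeR). Its relative Robo3, the next gene on the chromosome, was at 2.00, 2.03 and 1.61 CPM in Control and at 4.81, 5.01 and 3.31 CPM in Kdm6b-KO, groups apart (log2 fold change 1.22, SE 0.44, edgeR adjusted p = 0.225). Slit2, a ligand of the Robo family, was at 1.69 to 2.63 CPM in Control and 0.693 to 4.11 CPM in Kdm6b-KO. Robo4 is also an endothelial gene, and the 9 endothelial markers summed to 279 to 395 CPM in Control and 395 to 461 CPM in Kdm6b-KO, and the 6 libraries fell in the same order for this sum as for Robo4. That order rests on a near tie, as the sum was 394.985 CPM for Control replicate 3 and 395.053 CPM for Kdm6b-KO replicate 1. The sum was made up mostly of Tie1, Pecam1, Tek and Emcn, and of these only Tie1 followed the Robo4 order. From Control replicate 1 to Kdm6b-KO replicate 3, Tie1 was at 93.1, 106, 137, 170, 193 and 201 CPM. Tek, in the same sequence, was at 61.3, 135, 109, 71.9, 75.6 and 102 CPM. Pecam1 (63.6 to 101 CPM over the 6 libraries) and Emcn (46.6 to 63.0 CPM) did not follow that order either. Kdr was at 2.51 to 5.33 CPM, and Cdh5, Plvap, Flt4 and Stab2 were each at no more than 1.23 CPM in any library. Their part in the Robo4 values was not tested.

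Vcam1, the ligand of alpha 4 beta 1 integrin (chromosome 3, 116110020 to 116129688), varied most among libraries of a group. It was at 13.8, 15.0 and 28.2 CPM in Control and at 25, 5.78 and 4.01 CPM in Kdm6b-KO. Kdm6b-KO replicate 1 fell within the Control range, and the other Kdm6b-KO libraries lay below every Control library. The means were 19.0 ± 7.99 and 11.6 ± 11.6 CPM (SD, n = 3 each), and the log2 fold change was -0.73 (SE 0.74, 95% interval -2.51 to 1.05, edgeR adjusted p = 0.701). Without Kdm6b-KO replicate 1 the log2 fold change was -1.98 with an edgeR adjusted p of 0.0412, where 97 of 15315 genes passed (0.633%). This was the only call of any member in the 13 alternatives tried. Kdm6b-KO replicate 1 was also the Kdm6b-KO library with the high neutrophil sum, at 4422 CPM against 197 and 195 CPM. Among the Control libraries the order differed, with Vcam1 highest in replicate 3 and the neutrophil sum in replicate 1. The neutrophil enzyme gene Elane was at 552, 155 and 235 CPM in Control and at 706, 23.6 and 7.77 CPM in Kdm6b-KO, although the sort removed lineage-positive cells. The 11 monocyte and macrophage markers summed to 86.0 to 104 CPM in Control and 70.4 to 94.7 CPM in Kdm6b-KO. Among them F13a1 was at 12.1, 9.02 and 18.2 CPM in Control and at 13.2, 1.2 and 0.940 CPM in Kdm6b-KO, so that, as for Vcam1, Control replicate 3 was highest in its group and Kdm6b-KO replicates 2 and 3 lay below all other libraries. Ly86 was at 2.41 to 2.85 CPM in Control and at 4.11, 0.109 and 0.791 CPM in Kdm6b-KO. Spic was at 17.8 to 19.4 CPM in Control and 9.50 to 13.2 CPM in Kdm6b-KO, C1qb at 2.42 to 5.63 CPM over all 6 libraries, and C1qa and C1qc under 1 CPM in each. Cd68, Csf1r and Cd14, also of this list, differed from Vcam1. Cd68, the most abundant, was at 44.1, 28.3 and 27.5 CPM in Control and at 39.7, 31.9 and 35.5 CPM in Kdm6b-KO. Csf1r was at 12.3, 16.3 and 13.3 CPM in Control and at 14.2, 18.2 and 24.8 CPM in Kdm6b-KO. Adgre1, Mrc1 and Cd14 were each at no more than 4.15 CPM in any library. The 10 erythroid markers, led by Car2, summed to 8243 to 11138 CPM in Control and 4497 to 5630 CPM in Kdm6b-KO, with groups apart. Nearly all of this sum was Car2, at 7937 to 10761 CPM in Control and 4453 to 5577 CPM in Kdm6b-KO. Of the 10 markers, 8 had a negative log2 fold change and 2 a positive one, Hbb-bt (1.06, groups apart) and Epor (0.72, groups overlapping). Car1 was at 169, 10.2 and 17.1 CPM and Ermap at 19.8, 2.18 and 0.940 CPM in the Kdm6b-KO libraries, again highest in replicate 1. The 6 mast cell and basophil markers summed to 13.5 to 80.0 CPM in Control and 4.95 to 11.3 CPM in Kdm6b-KO, also apart, and the stromal markers to 25.3 to 91.2 and 27.7 to 35.9 CPM. The part of other cells in the Vcam1 values was not tested.

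**Figure D3:**
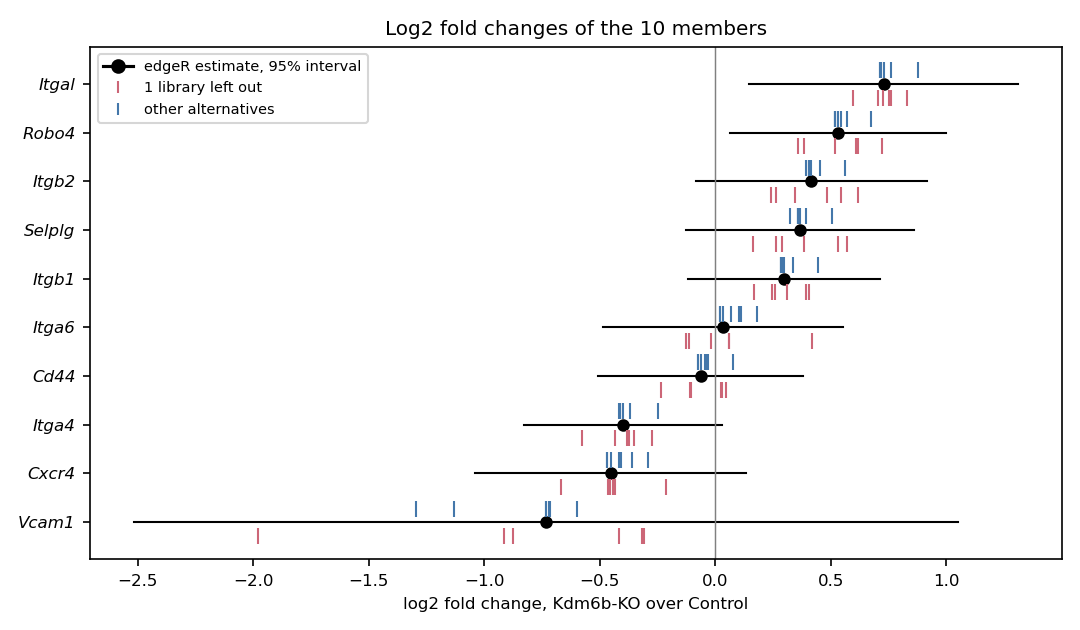
Log2 fold change (Kdm6b-KO over Control) of the 10 receptors: black points and lines give the edgeR estimate and its 95% interval, red ticks the values with 1 library left out and blue ticks the other alternatives. The intervals of Itgal and Robo4 lie above 0 before adjustment over all genes, and Vcam1 spreads from -1.98 to -0.31 as single libraries are left out.

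The transcripts whose profiles over the 6 libraries lay nearest to each member differed from member to member. Likeness was the root-mean-square difference of centred log2 CPM over genes whose mean reached 5 CPM. The nearest was Noc3l for Itga4 (0.0206), Cul3 for Itga6 (0.0225), Slx4ip for Cxcr4 (0.0533) and Plekho2 for Robo4 (0.0554). It was Ccdc91 for Itgal (0.0676), Gon4l for Itgb1 (0.0480), Guca1a for Itgb2 (0.0829), Nucks1 for Cd44 (0.0645) and 1700101I11Rik for Selplg (0.0462). For Vcam1 it was BC035044, at a larger difference of 0.357. Vcam1 itself varied more, with a root-mean-square spread of 0.981 around its own mean against 0.217 to 0.372 for the other members. The difference grows with that spread, so it cannot be compared directly between Vcam1 and the others. None of the 10 nearest genes was another gene of the homing and adhesion lists. These lists hold 128 of the 15185 tested genes, so 0 of 10 cannot set the receptors apart from other genes.

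The other genes of the pathway were taken from 8 lists with 162 genes, of which 128 were tested. Of these 1 rose and 1 fell, which is 1.56% against 0.461% of all genes (0.244% higher and 0.217% lower). S1pr4, a receptor for sphingosine 1-phosphate, a lipid that guides blood cells between tissue and blood, was at 20.3, 14.6 and 22.4 CPM in Control and at 43.4, 37.9 and 49.3 CPM in Kdm6b-KO. Every Kdm6b-KO library was above every Control library, and the log2 fold change was 1.19 (SE 0.24, edgeR adjusted p = 0.0390). Hmmr, which encodes a hyaluronan-binding protein that also serves the mitotic spindle, was at 113, 88.4 and 90.4 CPM in Control and fell to 56.3, 42.6 and 41.6 CPM in Kdm6b-KO, with groups apart (log2 fold change -1.05, SE 0.20, edgeR adjusted p = 0.0323). Both calls moved with the settings. The tool limma-voom gave an adjusted p of 0.0671 for S1pr4 and 0.0534 for Hmmr, and S1pr4 did not pass without Control replicate 2 (adjusted p = 0.189) or without any 1 of the Kdm6b-KO libraries (adjusted p = 0.0747, 0.137 and 0.288). Hmmr did not pass without Control replicate 2 (adjusted p = 0.0514), Kdm6b-KO replicate 2 (0.191) or Kdm6b-KO replicate 3 (0.25), nor with library totals (0.0585).

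Positive log2 fold changes were more common than negative ones among the 128 genes, 83 against 45, with a median of 0.14. An unadjusted p under 0.05 was found for 38 of them (29.7%, against 14.8% of all genes), and the groups did not overlap for 40 (31.3%, against 20.5% of all genes), 31 higher and 9 lower. Over all tested genes, non-overlapping groups were higher in 11.0% and lower in 9.49%. The list of 14 other integrin subunits had a median of 0.46, with 10 positive and 4 negative and 0 called. In it Itga5, the fibronectin receptor subunit, was at 28.7, 46.3 and 48.3 CPM in Control and at 55.2, 58.8 and 94.9 CPM in Kdm6b-KO (adjusted p = 0.193), and Itga2b, the platelet integrin subunit, was at 50.8 ± 19.0 and 69.7 ± 15.1 CPM (adjusted p = 0.452).

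The remaining lists had smaller medians or few genes. Integrin activation and adhesion plaque genes (25 tested) had a median of 0.21, with 18 positive and 0 called. In it Tln1, the talin that switches integrins on, was at 405.6 ± 55.0 and 522.6 ± 74.7 CPM (adjusted p = 0.434), and Fermt3, the kindlin of blood cells, at 725.3 ± 140.1 and 755.4 ± 167.7 CPM (adjusted p = 0.937). Chemokine signalling and migration genes (29 tested) had a median of 0.15, with 19 positive, 0 called and 12 with an unadjusted p under 0.05. Its most abundant member Rgs18, a brake on G-protein signalling, was at 1823, 1566 and 1140 CPM in Control and at 999.6, 839 and 924 CPM in Kdm6b-KO, with groups apart (adjusted p = 0.186). Rac2, a small GTPase of blood cells, was at 898.6 ± 118.5 and 958.9 ± 136.3 CPM (adjusted p = 0.882). Other chemoattractant receptors (14 tested), the list of S1pr4, had a median of 0.15 with 8 positive.

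Selectins and genes of selectin-ligand synthesis (14 tested) were centred on 0.02 with 8 positive and 0 called. Cd34, a sialomucin, was at 332.4 ± 34.3 and 392.6 ± 73.0 CPM (adjusted p = 0.631) and Cd24a, a P-selectin ligand, at 247.7 ± 54.7 and 224.2 ± 37.2 CPM (adjusted p = 0.797). Slit and Robo genes (7 tested) had a median of 0.23 with 4 positive and 0 called, and Srgap2 and Srgap3, which act downstream of Robo receptors, had adjusted p of 0.723 and 0.752. Immunoglobulin, cadherin and tetraspanin adhesion proteins (16 tested) had a median of 0.10 with 10 positive and 0 called. Cd47, the signal that restrains phagocytes, was at 923.4 ± 242.0 and 724.5 ± 123.3 CPM (adjusted p = 0.529), and the tetraspanin Cd81 at 694.0 ± 42.3 and 657.1 ± 46.6 CPM (adjusted p = 0.893). Ligands and matrix of the receptors (9 tested), the list of Hmmr, had a median of 0.36 with 6 positive. These medians describe the lists, and no list was tested as a set.

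**Figure D4:**
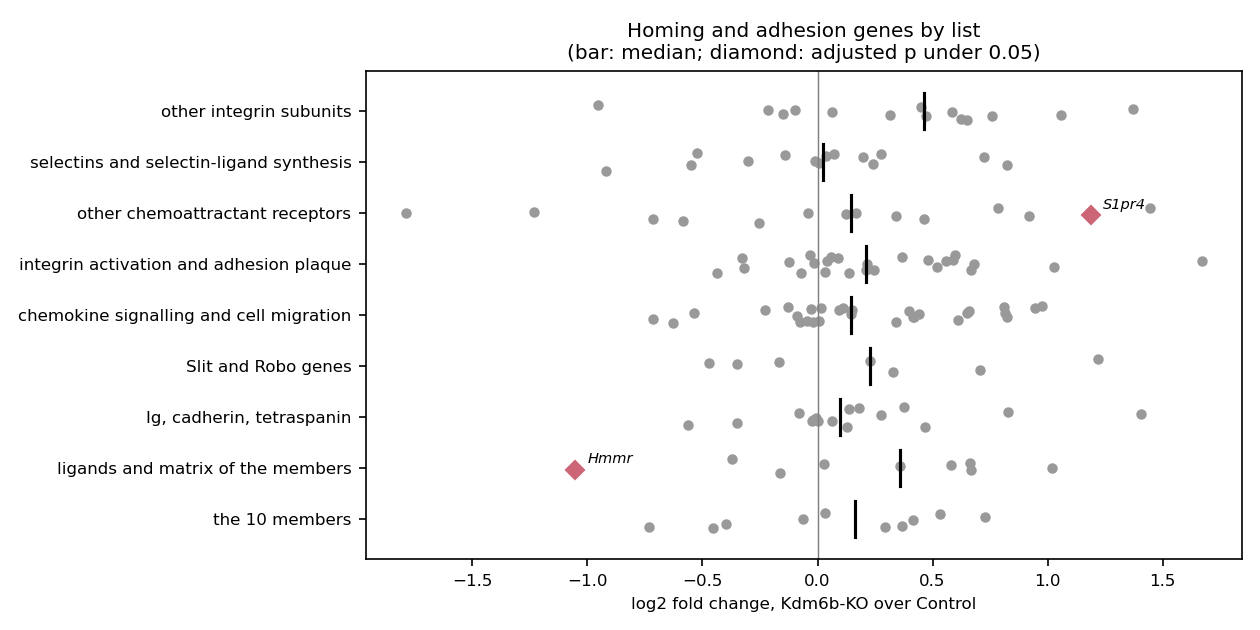
Log2 fold change (Kdm6b-KO over Control) of each tested gene in 8 lists of homing and adhesion genes and of the 10 receptors, with a bar at each median. Diamonds mark the 2 genes with an adjusted p under 0.05, S1pr4 (1.19) and Hmmr (-1.05), and no receptor among the 10 is marked.

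Open chromatin at the receptor genes was read from the peak lists, 1 per ATAC library, with 47450, 44739 and 62125 peaks in Control and 63682, 53692 and 69729 peaks in the libraries titled 6bKO. Read depth is unknown here, so the number of peaks was taken out by using shares. Peaks in or within 50 kb of a receptor gene numbered 81, 76 and 101 in Control and 82, 88 and 110 in the libraries titled 6bKO. As a share of all peaks this was 0.171%, 0.170% and 0.163% in Control and 0.129%, 0.164% and 0.158% in the libraries titled 6bKO. The libraries titled 6bKO spanned a wider range, with replicate 1 lowest, and overlapped Control. The means were 0.168 ± 0.00447% and 0.150 ± 0.0188% (SD, n = 3 each), a difference of -0.0176 percentage points (exact two-sided permutation p = 0.2, smallest possible 0.1).

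Merging peaks with an overlap of 1 bp or more gave 149774 regions, of which 187 lay in the receptor windows. Of these 187, 39 held a peak in all 6 libraries (20.9%, against 13% of all regions) and 87 in a single library (46.5%, against 59.9%). Of the 187, 53 lay in a receptor gene and 134 outside, and of the 39, 16 lay in a receptor gene. The windows also hold other annotated genes, 10 in that of Itgal and 8 in that of Selplg. The counts below thus describe windows and not the receptor genes alone. The windows held from 5.41 regions per 100 kb for Itgb1 to 24.4 for Itgb2, with a median of 13.1, while the median over 21887 protein-coding genes was 8.96. Itgb2 had 33 regions, 6 of them in all libraries, Itga6 had 26 and 4, Selplg 25 and 7, and Itgal 23 and 5. Cd44 had 21 and 4, Cxcr4 17 and 3, Itga4 12 and 4, Robo4 12 and 4, and Itgb1 8 and 2. Vcam1 had 10 regions, none inside the gene and each in a single library, and it was the only receptor with 0 regions shared by all 6.

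A region present in all 6 libraries covered the annotated start of Cxcr4 (651 bp), Itga4 (1501 bp), Itgb1 (1142 bp), Cd44 (703 bp) and Robo4 (803 bp), the genes whose start the promoter table gives. Peaks were ranked within each library's list by the authors' q value, so that a higher percentile means a smaller q. The start peak of Itga4 ranked at the 84.2 to 92.4 percentile and that of Robo4 at the 75.4 to 89.1 percentile. For Cxcr4 the range was 66.3 to 82.0, for Itgb1 71.0 to 85.3 and for Cd44 80.2 to 92.4. For Itga6, Itgal, Itgb2 and Selplg, a region in all 6 libraries lay within 1 kb of an end of the gene. At Vcam1 no library had a peak within 1 kb of either end, and Vcam1 transcripts were counted in all 6 RNA libraries, from 53 to 386 reads.

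Among the 187 regions, 1 held a peak in all 3 Control libraries and in none titled 6bKO (0.535%, against 0.288% of all regions), and 1 held the reverse pattern (0.535%, against 1.30%). Neither count sets the receptor windows apart from the background. The region found only in Control lay inside Itga4, 3.85 kb from its start (chromosome 2, 79259279 to 79259690, mm10, 412 bp). The authors' fold enrichment there was 4.40, 6.33 and 3.67 in the Control libraries. By q value these peaks ranked at the 59.7, 78.6 and 58.5 percentile of each list. The neighbouring regions at the Itga4 start and 14.7 kb into the gene held a peak in all 6 libraries. The region found only in the libraries titled 6bKO lay inside Robo3, 7.28 kb beyond the end of Robo4 (chromosome 9, 37421303 to 37421561, mm10, 259 bp). The authors' fold enrichment there was 5.11, 4.23 and 6.50, and a region 0.192 kb away held a peak in all 6 libraries. A missing peak means that none passed the caller's threshold in that library, not that the DNA was closed. The region in Itga4 and the lower Itga4 values, and the region in Robo3 and the higher Robo4 values, come from separate libraries, and no relation between them was tested.

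**Figure D5:**
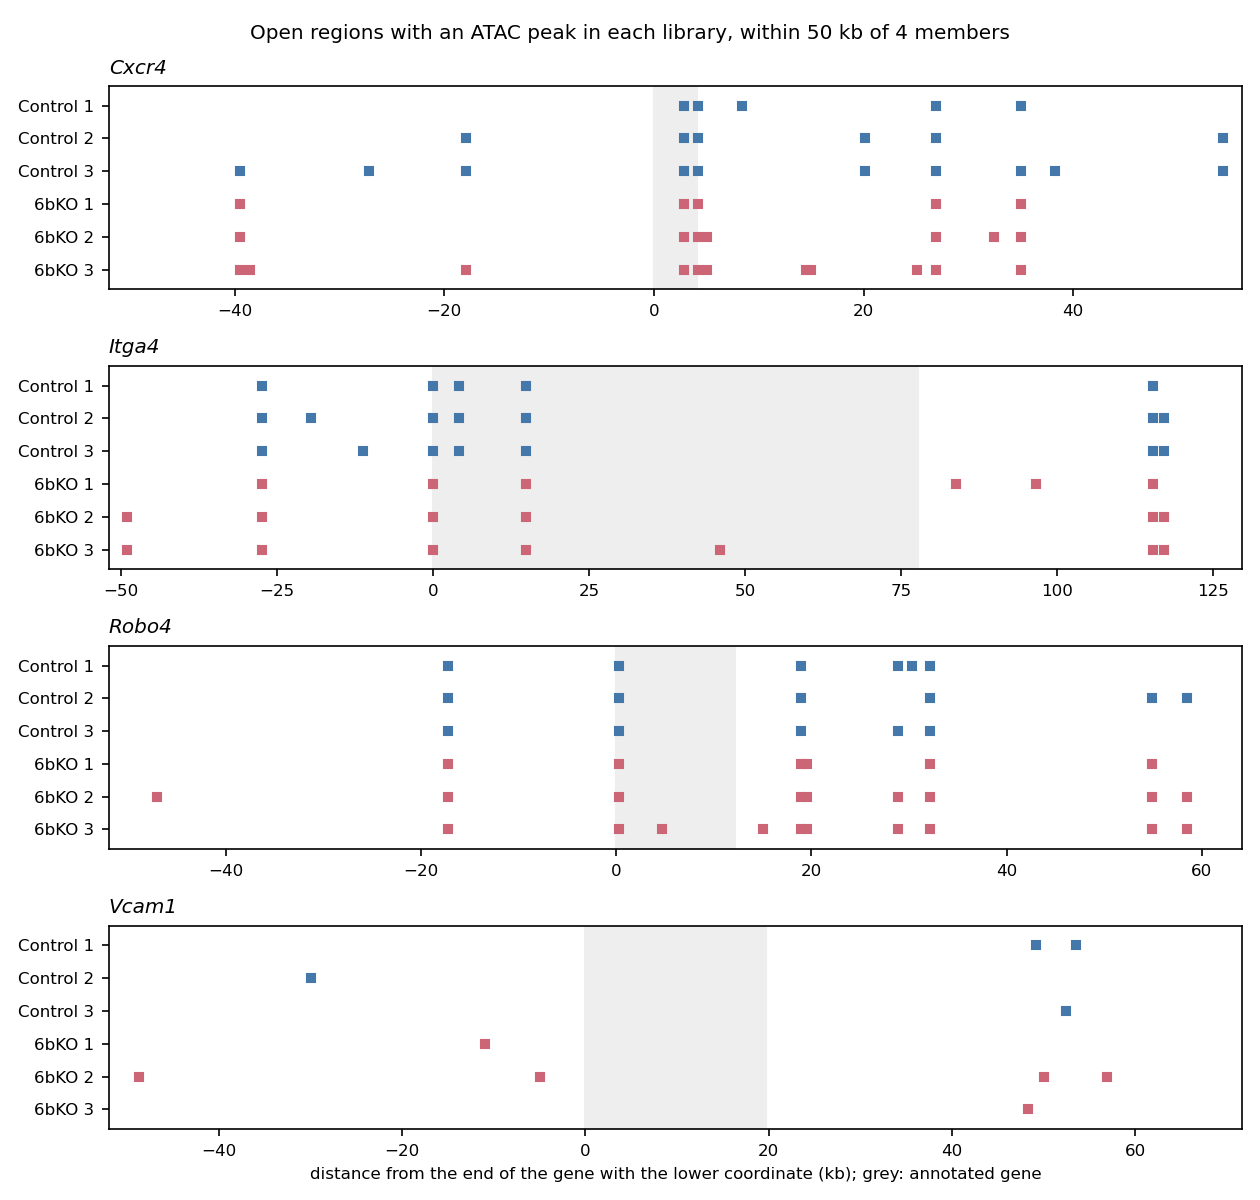
Position of open-chromatin regions around Cxcr4, Itga4, Robo4 and Vcam1, with a square where a library has a peak (blue Control, red titled 6bKO); the horizontal axis is distance in kb from the lower-coordinate end of the gene, and grey is the annotated gene. Itga4 has a column with Control squares alone inside the gene, Robo4 has a column with squares of the 6bKO titles alone beyond its end, and Vcam1 has squares of single libraries outside the gene.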

How the data were processed

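The 10 receptors and the gene lists were chosen with earlier results of these data known, so no list is independent evidence. Each deposited RNA file lists raw counts of reads by Ensembl gene. For RNA, Partek 6.6, HTSeq 0.8.0, featureCounts 1.4.5 of Subread and STAR 2.0.4, and for ATAC cutadapt 1.16, BWA 0.7.16a and MACS2, with mm10, are named without roles per the submitters' processing notes. Per the labels' protocols, RNA libraries were made with a SMARTer Ultra Low kit from 3 to 5 ng, and replicates are called biological. The release of the annotation and the strand setting were not given in the sources used here. Rows of unassigned reads (80.3% to 83.5% of reads) were left out. The ATAC data are deposited as a peak list for each library, with the authors' fold enrichment as a ratio, p and q as −log10 values and an integer score. The score was not used.

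Counts were tested with edgeR 4.0.16 (R 4.3.3; filterByExpr by group, TMM, robust quasi-likelihood fit on genotype, Benjamini-Hochberg over 15185 genes, threshold 0.05, two-sided), and the procedure was tested on simulated data. Intervals are 95%, and Poisson intervals and the value of 3 counts cover counting error only. DESeq2 1.42.0, limma 3.58.1, other scalings and filters, a replicate block and leaving out each library were alternatives. Symbols matched 49326 of the 49671 identifiers. Positions and promoters are RefSeq, GRCm38.p6. All receptors are named, and of each other list the called genes or, with none, the 2 most abundant. Cxcl12, Slit2, Robo3, Elane, F13a1, Ly86, Csf1r, Adgre1, Mrc1, Cd14, Car1, Ermap, Hbb-bt, Epor, Spic, C1qa, C1qb, C1qc, Cdh5, Plvap, Tie1, Pecam1, Tek, Emcn, Kdr, Flt4 and Stab2 were named after their values were seen. The other 8 samples of the series, histone immunoprecipitation and input, were not analysed here.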

Additional observations from a re-analysis of the deposited data

How the results depend on the processing

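No receptor changed its call except Vcam1. The number of receptors called was 0 in the edgeR test and in 12 of 13 alternatives, and 1 without Kdm6b-KO replicate 1 (0 to 1 as single libraries were left out). Signs were kept in every alternative for Cxcr4, Itga4, Itgal, Itgb1, Itgb2, Selplg, Robo4 and Vcam1. Single libraries moved the size of several, from 0.16 to 0.41 for Itgb1, 0.24 to 0.62 for Itgb2, 0.16 to 0.57 for Selplg and -0.67 to -0.21 for Cxcr4. Signs turned for Cd44 (0.0753 with library totals, -0.24 to 0.0448 as single libraries were left out) and Itga6 (-0.13 to 0.42), whose estimates lie near 0. Among other named genes they turned with library totals for Cd24a (0.00526), Cd81 (0.0717) and Kdm6b (0.00925), a scaling that moves the median of all genes by 0.147. As single libraries were left out they turned for Cd24a (-0.28 to 0.0520), Fermt3 (-0.13 to 0.19), Rac2 (-0.0283 to 0.21) and Kdm6b (-0.49 to 0.19). The number of pathway genes called, 2 in the edgeR test, was 6 with DESeq2, 0 with limma-voom, 1 with library totals, 6 without a low-count filter and 0 to 6 as single libraries were left out; the cause was not tested. Itga5 had an adjusted p of 0.0377 without the filter and Rgs18 one of 0.0378 with DESeq2. Over all genes, 70 calls became 467 with DESeq2, 42 with limma-voom, 576 of 34366 without a filter and 20 to 519 as single libraries were left out, and library totals gave 70 higher and 30 lower against 37 and 33. With the replicate number as a block, 0 receptors, 2 pathway genes and 88 of all genes were called. The deviations of same-numbered libraries correlated at 0.0484, 0.169 and -0.110, and not every library matched its own number best. With 3 libraries per group, these correlations cannot settle whether the numbers pair the samples. The share of ATAC peaks in receptor windows stayed lower in the libraries titled 6bKO in all 11 alternatives (-0.0245 to -0.00689 percentage points, exact permutation p 0.1 to 0.5). Counting peaks of the same start and end once and the replicate block could only repeat the difference, -0.0176. No library held such repeated peaks, and the block averages the same 6 shares. The replicate block gave an exact p of 0.25, the smallest it can give. Regions that separate the ATAC groups, 2 in all, numbered 1 within the genes alone (1.89%, against 1.59% of all regions), 3 with a −log10 q of at least 5 (1.95% against 2.00%) and 4 to 7 as single libraries were left out, when fewer libraries have to match. Those 4 to 7 were 2.25% to 4.07% of the regions in the windows, against 2.40% to 4.62% of all regions. The ratio of Itga6 to Itgb1 turned to 0.0356 on the log2 scale without Control replicate 1 (-0.31 to 0.0356 as single libraries were left out), and that of Itga4 to Itgb1 ranged from -0.87 to -0.45. With 3 libraries per group and the set spread of the simulation, changes near 1 on the log2 scale were mostly below what could be called. In the real counts, S1pr4 (1.19) and Hmmr (-1.05) were called by edgeR. ATAC depth is unknown.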
